A study of Mus musculus with 3 samples.

Results

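Oxidative phosphorylation is the work of 5 protein complexes in the inner mitochondrial membrane, and its RNAs come from separate genomes. The genes described here were all rows of the deposited count tables whose symbols start with Ndufa, Ndufb, Ndufc, Ndufs, Ndufv, Uqcr, Cox4i, Cox5, Cox6, Cox7, Cox8, Atp5, mt-Nd, mt-Co, mt-Cytb or mt-Atp, leaving out symbols that contain -ps. This rule gave 97 of 26989 genes, of which 11 are encoded by mitochondrial DNA and 86 by nuclear chromosomes. Whole mouse skin was dissociated and single cells were sequenced with the Singleron GEXSCOPE kit, a method that tags RNA by cell. All mice were C57BL/6, and the series describes them as 9 weeks old. The control library came from unirradiated skin with saline, the UV library from UV-irradiated skin with saline, and the UV plus VD library from UV-irradiated skin with VD, which the series title gives as vitamin D. Each group is 1 library, so comparisons between groups have no replicate. Comparisons between layers or classes were made within each library and are set side by side over the 3 libraries, which differ in treatment. No test was made of either kind, and every interval below covers counting error only. The labels used do not say whether a library holds 1 mouse or several.

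Complex I takes electrons from NADH, complex III passes them to cytochrome c, complex IV hands them to oxygen, and ATP synthase uses the resulting proton gradient to make ATP. Complexes I, III, IV and ATP synthase join core subunits made from mitochondrial RNA to nuclear subunits, while complex II is nuclear only. In the epidermis, basal keratinocytes divide, spinous and granular keratinocytes differentiate, and cornifying keratinocytes lose their mitochondria along with their other organelles. By textbook role, the nuclear genes comprised 36 subunits of complex I, 8 complex I assembly factors (Ndufaf1 to Ndufaf8), 8 genes of complex III, 18 of complex IV and 16 of ATP synthase. Ndufa4 and its paralog Ndufa4l2 were placed with complex IV, where the Ndufa4 protein is known to sit despite its name.

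After filters the libraries held 9078 control cells, 5451 UV cells and 6199 UV plus VD cells, with 79450666, 50610389 and 69126823 counts. Median counts per cell were 6822.5, 7566 and 9301. Between 37 and 66 barcodes were shared by any 2 libraries. Keratinocytes made up 93.3% of control cells, 66.0% of UV cells and 92.9% of UV plus VD cells. The UV library alone held hair matrix and shaft cells (295 cells, against 0 and 0), and its spinous keratinocytes lay mainly in 1 cluster led by Stfa3, Stfa1 and Krt6a (762 of 1046 cells, against 20 of 1576 in control and 42 of 1091 in UV plus VD). Cell clusters were computed without any of the 97 genes and without any other mitochondrial gene. Differences in these genes between layers and classes thus did not enter the clustering directly. All other genes could enter it, including any that vary with these. Layers were named from marker lists. Keratinocytes in clusters whose leading genes mixed layers (4694, 1123 and 2938 cells) were given no layer.

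The mouse nuclear genome holds copies of mitochondrial DNA, and the mitochondrial genes differed widely in counts. In the control library mt-Co1, a core subunit of complex IV, had 134737 counts, and mt-Cytb, the mitochondrial subunit of complex III, had 365774. By contrast mt-Co2 had 12 counts, mt-Co3 had 5 and mt-Atp6 had 29, although their products are core parts of complex IV and ATP synthase. In GENCODE vM21 transcripts, 100%, 99.9% and 99.5% of the 50-base words of mt-Co2, mt-Co3 and mt-Atp6 also occurred in a transcript of another gene, against 0% for mt-Cytb. The last 50 bases of mt-Co2 and mt-Cytb show the difference, with capitals marking bases that a nuclear transcript (Gm13341) repeats exactly:
mt-Co2: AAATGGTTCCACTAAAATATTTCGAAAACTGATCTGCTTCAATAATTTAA
mt-Cytb: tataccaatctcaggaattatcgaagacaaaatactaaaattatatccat
Of the genes with high totals, mt-Co1 shared 51.1% of its words over the whole transcript and 100% near its 3′ end, and mt-Nd3 shared 98.0% and 98.8% and had 6092 counts in control. For mt-Nd4 the same shares were 62.2% and 0%, and for mt-Nd2 8.19% and 31.9%. The part of shared sequence in these totals was not tested. Low totals of mt-Co2, mt-Co3 and mt-Atp6 are not read as low expression, and medians over mitochondrial genes rest on the 8 or 9 that had at least 20 counts in the groups compared. Where 9 were used, mt-Atp6 was among them, and its few counts entered the median with a log2 ratio near 0. Over all 97 genes, 5 mitochondrial and 7 nuclear genes (Atp5l, Cox5a, Cox7c, Ndufb6, Ndufs3, Ndufs5 and Uqcrc2) shared over 50% of the 50-base words in their last 300 bases (3′ words) with another gene, and 64 shared none. For mt-Nd6, which lies on the opposite strand from the other mitochondrial protein genes, reads cannot be told apart from its antisense neighbours unless counting used strand, on which the labels are silent.

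Mitochondrial RNA took a smaller share of counts in each more differentiated keratinocyte layer, in all 3 libraries. The summed share of the mitochondrial genes in control was 2.06% in basal, 1.64% in spinous, 0.921% in granular and 0.410% in late cornifying keratinocytes. In the UV library the shares were 2.51%, 1.78%, 1.04% and 0.422%. In the UV plus VD library they were 2.29%, 1.74%, 0.984% and 0.426%. No library broke the order, and the basal layer of every library lay above the granular layer of every other.

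The summed share of the nuclear genes of the same complexes differed less between basal and granular cells and was much smaller in late cornifying cells. In control they took 1.76% of basal, 1.86% of spinous, 1.80% of granular and 0.702% of late cornifying counts. In UV the shares were 2.14%, 2.14%, 1.96% and 0.655%, and in UV plus VD 2.01%, 2.11%, 1.86% and 0.638%. As a result mitochondrial counts per nuclear count went from 1.17 in basal to 0.512 in granular cells of control, from 1.17 to 0.532 in UV and from 1.14 to 0.529 in UV plus VD. Part of the nuclear share was 1 gene, Ndufa4, described below. Without it the nuclear share was lower in granular than basal cells of every library, at 1.49% against 1.71% in control, 1.60% against 2.10% in UV, and 1.57% against 1.96% in UV plus VD. The ratio without it went from 1.21 to 0.616 in control, from 1.20 to 0.651 in UV and from 1.17 to 0.628 in UV plus VD.

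**Figure D1:**
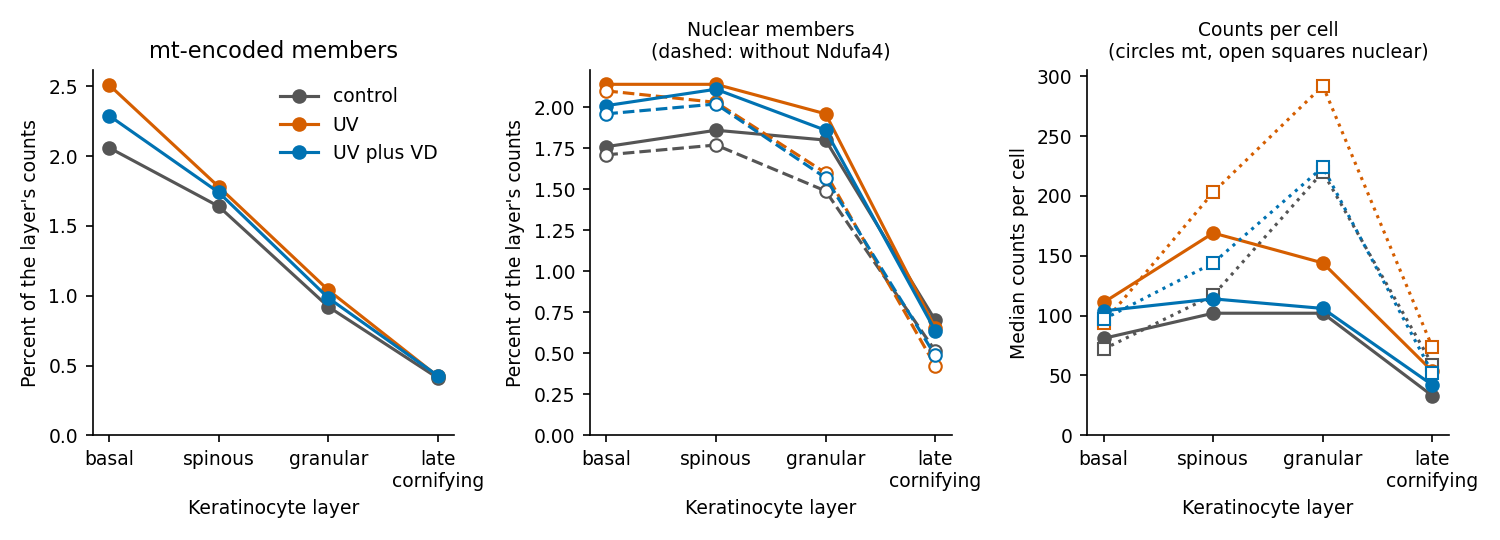
Shares of counts of mitochondrial genes (left) and nuclear genes (middle, dashed lines without Ndufa4) and median counts per cell (right, circles mitochondrial, open squares nuclear) by keratinocyte layer, with 1 line per library. Mitochondrial shares step down at every layer, while nuclear shares differ most between granular and late cornifying cells and, without Ndufa4, are also lower in granular than basal cells.

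Counts per cell differed from the shares, since granular cells carried more RNA counts in total (median 12140 in control, against 4291 in basal cells). The median control cell held 81.0 mitochondrial counts in the basal layer and 102 in the granular layer. Its nuclear counts were 72 and 220. The mitochondrial counts were 111 and 144 in UV and 104 and 106 in UV plus VD, and the nuclear counts 94.0 and 292, and 97.0 and 224. Fewer mitochondrial counts per cell were therefore not seen in granular cells of any library. The smaller share came beside a larger total, and the nuclear counts grew with that total. Late cornifying cells of control had 33.0 mitochondrial and 59.0 nuclear counts at a median total of 12830.

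Gene by gene, log2 ratios of granular to basal levels were computed in each library from CPM, counts scaled to the same total in every group of cells, plus 10, over genes with at least 20 counts in the layers compared. The median over 8 mitochondrial genes was -1.17 in control, -1.17 in UV and -1.11 in UV plus VD. Over 81, 79 and 81 nuclear genes it was -0.13, -0.29 and -0.14, and over all genes -0.16, -0.19 and -0.16. Over all genes at 50 CPM or more it was 0.01, -0.06 and -0.13. With the median of all genes set to 0, the nuclear medians were 0.03 in control, -0.10 in UV and 0.02 in UV plus VD. Leaving mitochondrial, rRNA and haemoglobin genes out of the total shifted the median of all genes by -0.11 to -0.18 and made the mitochondrial median of control -1.42.

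At least 1.5-fold lower in granular than basal cells in every library were 7 of 8 mitochondrial genes and 16 of 79 nuclear genes, where the background over all genes was 24.8%. In the other direction 1 of 79 nuclear genes was at least 1.5-fold higher in every library, with a background of 16.6%. The nuclear share below (16 of 79) was no larger than the background. Of the mitochondrial genes, mt-Cytb was at 6517 CPM in basal and 2666 CPM in granular cells of control, 8739 and 3336 CPM in UV, and 7695 and 2952 CPM in UV plus VD. These are 2.44-fold (2.40 to 2.49), 2.62-fold (2.56 to 2.68) and 2.61-fold (2.56 to 2.65) lower. The genes for complex I subunits showed the same direction. Basal and granular levels of mt-Nd1 were 4950 and 1903 CPM in control, 5234 and 1771 CPM in UV, and 5452 and 1896 CPM in UV plus VD. For mt-Nd2 they were 1797 and 848 CPM, 1837 and 822 CPM, and 1865 and 944 CPM, and for mt-Nd5 992 and 500 CPM, 1348 and 591 CPM, and 969 and 491 CPM. The smallest differences were those of mt-Nd6, at -0.38, -0.68 and -0.60 on the log2 scale, and the other 7 genes ranged from -0.79 (mt-Nd4 in control) to -1.64 (mt-Nd3 in UV).

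**Figure D2:**
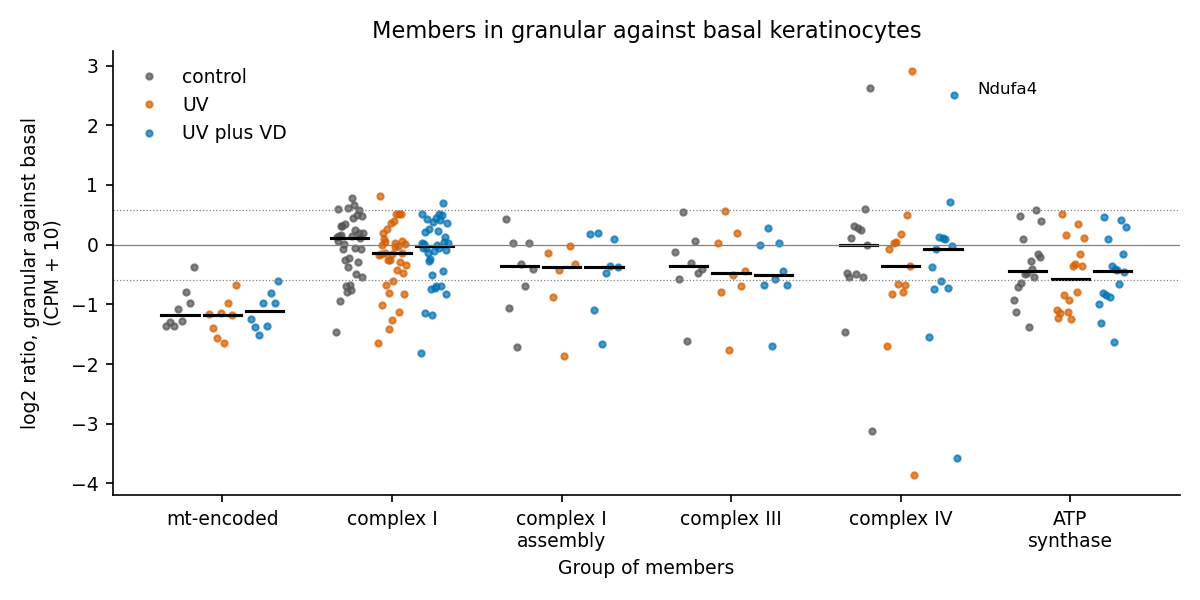
Each point is 1 gene in 1 library (colour), plotted as the log2 ratio of granular to basal CPM plus 10, with the median of each group as a black bar and 1.5-fold changes as dotted lines. All mitochondrial genes lie below 0 in the 3 libraries, nuclear groups straddle 0, and the 3 points above 2 are Ndufa4.

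Among nuclear genes, those lower in the granular layer of every library were spread over all complexes. ATP synthase gave 5 of its 16 genes. Atp5b, the catalytic beta subunit, was at 541 CPM in basal and 243 CPM in granular cells of control, 548 and 227 CPM in UV, and 602 and 235 CPM in UV plus VD. Atp5a1, Atp5c1, Atp5e and Atp5g3 were the others, with log2 differences from -0.64 (Atp5e in control) to -1.63 (Atp5g3 in UV plus VD). Complex IV gave Cox4i1, the common form of a subunit that helps regulate the enzyme. Cox4i1 was at 977 CPM in basal and 349 CPM in granular cells of control, 1095 and 330 CPM in UV, and 1021 and 344 CPM in UV plus VD. Complex III gave Uqcrc1, a core subunit, at 408 and 127 CPM in control, 455 and 127 CPM in UV, and 440 and 128 CPM in UV plus VD. Complex I gave Ndufa1, Ndufa2, Ndufb5, Ndufb6, Ndufb10 and Ndufb11, and the assembly factors Ndufaf2 and Ndufaf4. Ndufaf4 was at 49.3 CPM in basal and 8.07 CPM in granular cells of control, 40.9 and 3.93 CPM in UV, and 47.6 and 8.21 CPM in UV plus VD. The remaining gene of the 16 was Ndufa4l2.

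Subunits of the same complex did not all follow these. Cox6a1, the broadly expressed form of a complex IV subunit, was at 677 CPM in basal and 735 CPM in granular cells of control, 727 and 739 CPM in UV, and 737 and 701 CPM in UV plus VD. For ATP synthase, Atp5d, the delta subunit, was 1.40-fold higher in granular cells of control (1.33 to 1.48), 1.44-fold in UV (1.34 to 1.56) and 1.40-fold in UV plus VD (1.32 to 1.48). Uqcrb of complex III was at 399 CPM in basal and 585 CPM in granular cells of control. It was at 385 and 571 CPM in UV and at 458 and 558 CPM in UV plus VD. Uqcrh, the hinge protein of the same complex, went the other way, from 610 CPM in basal to 437 CPM in granular cells of control, 781 to 479 CPM in UV and 724 to 530 CPM in UV plus VD. In complex I, Ndufc1 was at 167 CPM in basal and 270 CPM in granular cells of control, 259 and 377 CPM in UV, and 213 and 309 CPM in UV plus VD. Ndufa6 was at 366 and 455 CPM in control, 415 and 428 CPM in UV, and 330 and 450 CPM in UV plus VD.

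Ndufa4 and Ndufa4l2 differed in opposite directions across the layers. Ndufa4 in control was at 484 CPM in basal, 896 CPM in spinous, 3053 CPM in granular and 1874 CPM in late cornifying cells. In UV the levels were 466, 1162, 3557 and 2301 CPM. In UV plus VD they were 509, 854, 2952 and 1517 CPM. Every granular value lay above every basal and spinous value. Granular against basal, it was 6.31-fold higher in control (6.06 to 6.58), 7.64-fold in UV (7.14 to 8.19) and 5.80-fold in UV plus VD (5.49 to 6.12). Each cluster of the granular layer lay above basal cluster 4: in control, Ndufa4 was at 3098, 3679 and 1440 CPM in the 3 granular clusters, against 484 CPM. The lowest of them, cluster 17, was below late cornifying cells in control (1874 CPM). It was above them in UV (2883 against 2301 CPM) and UV plus VD (2084 against 1517 CPM). The granular to basal log2 difference of Ndufa4 stayed between 2.11 and 3.10 in every library over the alternative settings planned beforehand. Settings chosen after seeing the data were not computed for single genes.

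Ndufa4l2, a paralog known as a hypoxia-induced gene, was at 176 CPM in basal, 109 CPM in spinous, 11.3 CPM in granular and 7.65 CPM in late cornifying cells of control. In UV it was at 508, 222, 25.6 and 0.884 CPM, and in UV plus VD at 349, 231, 20 and 11.3 CPM. Granular cells were 15.5-fold lower than basal cells in control (12.1 to 20.2), 19.8-fold in UV (16.6 to 23.9) and 17.5-fold in UV plus VD (15 to 20.5). Neither Ndufa4 nor Ndufa4l2 shares a 50-base word with another gene.

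**Figure D3:**
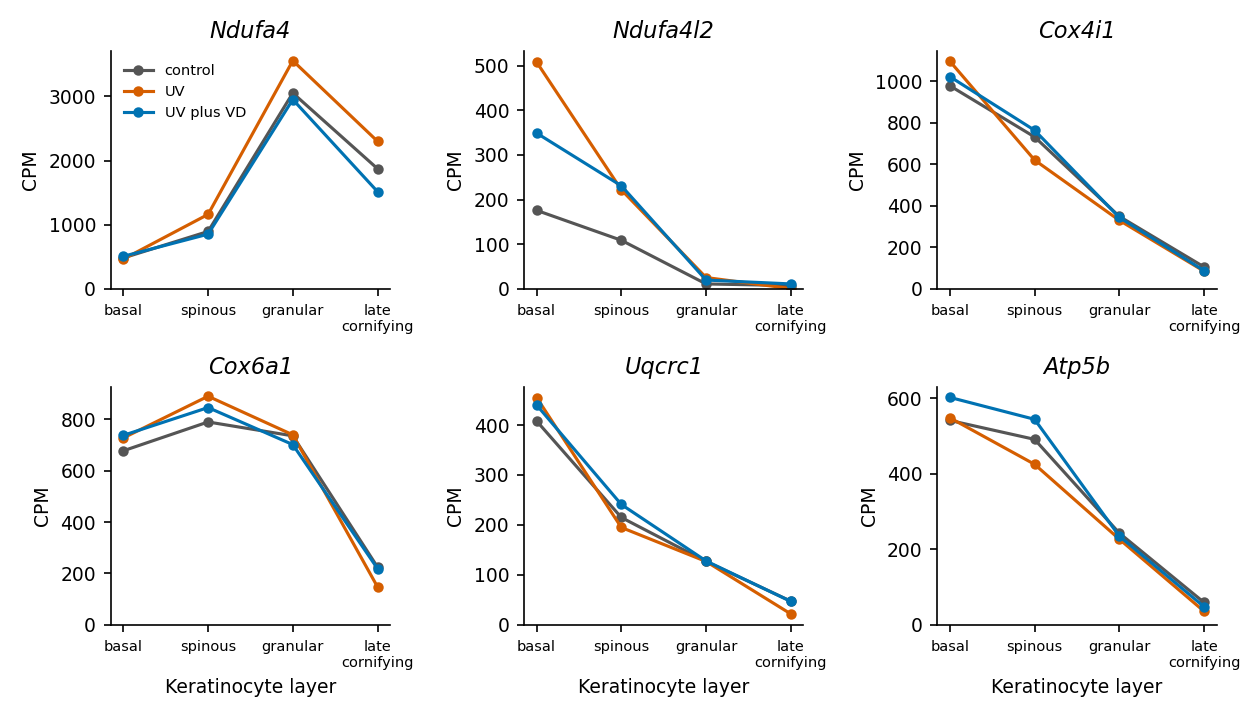
CPM of 6 nuclear genes by keratinocyte layer, with 1 line per library and an own vertical axis from 0 for each gene. Ndufa4 peaks in the granular layer of all 3 libraries, Ndufa4l2 is highest in basal cells and above control there in both irradiated libraries, and Cox4i1, Uqcrc1 and Atp5b step down from basal to late cornifying cells.

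Promoters are shown for Ndufa4 and for Uqcrc1 and Ndufaf4, which after Ndufa4l2 had the lowest granular to basal ratios of the nuclear genes in control. NRF1 and the ETS factor GABP are known regulators of genes for the respiratory chain. RefSeq promoters (GRCm38.p6, 250 bases before to 50 after a transcript start) matched 70 of the 86 nuclear genes with 75 promoters. The NRF1 motif, a 10-base near-palindrome searched on both strands, occurred in 18 of the 75 (24.0%), against 4.60% of all 32851 promoters in the table. The ETS motif CCGGAAGT occurred in 5 of 75 (6.67%), against 3.89% of all. Either motif occurred in 22 of the 75 (29.3%), so 1 promoter held both, against 8.10% of all. In the sequences, capitals mark NRF1 matches:
Ndufa4: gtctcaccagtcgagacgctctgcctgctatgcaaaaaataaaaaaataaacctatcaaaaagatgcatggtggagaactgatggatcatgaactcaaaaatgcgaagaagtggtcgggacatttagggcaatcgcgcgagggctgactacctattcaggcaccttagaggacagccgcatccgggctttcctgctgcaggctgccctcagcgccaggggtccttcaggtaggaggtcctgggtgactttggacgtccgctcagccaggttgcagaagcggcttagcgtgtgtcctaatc
Uqcrc1: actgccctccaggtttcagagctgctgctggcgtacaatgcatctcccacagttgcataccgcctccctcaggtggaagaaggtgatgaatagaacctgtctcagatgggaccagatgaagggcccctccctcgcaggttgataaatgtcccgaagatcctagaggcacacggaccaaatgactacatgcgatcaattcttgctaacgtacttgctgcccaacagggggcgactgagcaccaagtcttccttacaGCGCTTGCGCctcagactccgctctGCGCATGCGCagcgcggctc
Ndufaf4: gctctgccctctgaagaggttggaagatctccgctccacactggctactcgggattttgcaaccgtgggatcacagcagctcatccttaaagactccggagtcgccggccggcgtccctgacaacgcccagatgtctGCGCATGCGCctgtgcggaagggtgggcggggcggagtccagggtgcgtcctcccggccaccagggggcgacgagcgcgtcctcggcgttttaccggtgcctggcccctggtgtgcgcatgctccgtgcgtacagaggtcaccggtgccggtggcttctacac
They lie at chr6:11907401-11907700 on the minus strand, chr9:108936398-108936697 on the plus strand and chr4:24897833-24898132 on the plus strand. Uqcrc1 held 2 NRF1 matches, Ndufaf4 held 1 and Ndufa4 held none of either motif in its window. Ndufa4l2 was not among the 70 genes matched. Of the other matched genes lower in the granular layer of every library, Atp5g3 held 1, as did 1 of 2 Atp5c1 promoters. Atp5b, Atp5e, Ndufa1, Ndufb5, Ndufb6, Ndufb10, Ndufb11 and Ndufaf2 held 0. Outside that group, Cox6a1 held 2 and Ndufa6 held 1, while Atp5d, Ndufc1 and Uqcrh held 0. A link of the NRF1 motif to the layer differences was not tested. A match is a run of letters and not a measured binding site.

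From granular to late cornifying cells the nuclear genes were lower too. At least 1.5-fold lower in every library were 72 of 79 nuclear and 7 of 8 mitochondrial genes, with a background of 57.3%. The nuclear median was -1.48 in control, -1.81 in UV and -1.58 in UV plus VD, below the mitochondrial median (-1.14, -1.26 and -1.22) and the median of all genes (-0.81, -0.90 and -0.69). Among all genes at 50 CPM or more the median was -1.48, -1.79 and -1.53, close to that of the nuclear genes. In these cells the 10 genes with most counts, mainly Lce1 genes of the cornified envelope, took 42.3% of control, 39.6% of UV and 43.3% of UV plus VD counts, against 23.7%, 23.5% and 24.1% in granular cells. The part of this in the lower CPM of other genes was not tested. Ndufa4 was 1.63-fold, 1.55-fold and 1.95-fold lower than in granular cells and supplied 0.187% of the 0.702% nuclear share in control.

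Other gene lists are given for granular against basal cells as medians of the same log2 ratios in control, UV and UV plus VD. The list of complex II and mobile carriers (Sdha to Sdhd, Cycs and electron transfer flavoproteins) also held Cyc1, a complex III subunit outside the symbol rule. This list had medians of -0.57, -0.67 and -0.62, with 4, 5 and 5 of 9 genes at least 1.5-fold lower (background 27.5%, 33.3% and 30.2% of all genes). Assembly factors other than Ndufaf genes lay at -0.04, -0.16 and -0.14, mitochondrial ribosomal proteins at -0.14, -0.33 and -0.24, and the machinery of mitochondrial transcription and genome upkeep at -0.44, -0.32 and -0.24. Citric acid cycle genes lay at -0.43, -0.91 and -0.45, regulators of mitochondrial biogenesis at -0.29, -0.19 and -0.30, and uncoupling and energy transfer genes at -1.16, -1.05 and -1.25. Glycolysis genes had medians of -1.40, -1.47 and -1.70, with 14 of 17, 14 of 16 and 14 of 16 at least 1.5-fold lower. Cytosolic ribosomal proteins lay at -1.0, -1.17 and -1.09, with 78, 81 and 81 of 87 lower. The mitochondrial median thus lay between those of glycolysis and cytosolic ribosome genes in control and UV plus VD, and equalled that of cytosolic ribosome genes in UV. The summed share of dissociation and stress genes (Fos, Jun, heat shock genes) was larger in granular cells, at 1.63% against 1.04% in control, 1.80% against 0.535% in UV and 2.20% against 0.876% in UV plus VD. The median of its 14 genes had the other sign, at -1.13, -0.08 and -0.81. The part of this list in the other differences was not tested.

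Sebocytes, the lipid-making cells of the sebaceous gland, had the largest shares of both kinds of genes among the classes with at least 20 cells. In their 34 control, 63 UV and 21 UV plus VD cells, mitochondrial genes took 4.21%, 4.32% and 3.89% of counts and nuclear genes 4.85%, 4.96% and 4.67%. All keratinocytes together had 1.51%, 1.62% and 1.46% mitochondrial and 1.95%, 2.09% and 2.06% nuclear shares. In every library at least 1.5-fold higher in sebocytes were 64 of 82 nuclear and 8 of 8 mitochondrial genes, with a background of 9.26%. The nuclear medians were 1.26, 1.23 and 1.20, the mitochondrial medians 1.26, 1.35 and 1.23, and those of all genes -0.07, 0.02 and -0.08. Cox4i1 was at 2439, 1887 and 2052 CPM in sebocytes and at 630, 570 and 564 CPM in keratinocytes. Of the 9 genes in the list of complex II, mobile carriers and Cyc1, 9 were at least 1.5-fold higher in each library (background 16.8%, 19.7% and 17.7%). Citric acid cycle medians were 1.31, 1.22 and 0.88, while glycolysis medians were -0.04, 0.13 and 0.18. Ndufa4 was not part of this pattern, with 999, 1183 and 1165 CPM in sebocytes and 1290, 1610 and 1496 CPM in keratinocytes.

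All other classes with at least 20 cells had smaller shares than sebocytes, and some had smaller shares than keratinocytes. Melanocytes (48 cells, UV library) had 3.67% mitochondrial and 3.25% nuclear shares, and hair matrix and shaft cells (295 cells, UV library) had 2.33% and 2.78%. T and NK cells (129, 172 and 59 cells) had 1.73%, 1.74% and 1.64% mitochondrial and 1.84%, 2.06% and 2.03% nuclear shares. Macrophages, monocytes and dendritic cells (134, 589 and 90 cells) had the smallest, with 0.805%, 1.0% and 0.820% mitochondrial and 1.07%, 1.51% and 1.14% nuclear. Fibroblasts (214, 480 and 208 cells) had 1.07%, 1.5% and 1.11% mitochondrial and 1.17%, 1.59% and 1.24% nuclear. Langerhans cells, the dendritic cells of the epidermis, held more mitochondrial than nuclear counts in control (58 cells, 2.40% and 1.93%). In their 43 UV cells the shares were 1.89% and 1.91%, and in their 22 UV plus VD cells 1.96% and 1.82%.

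**Figure D4:**
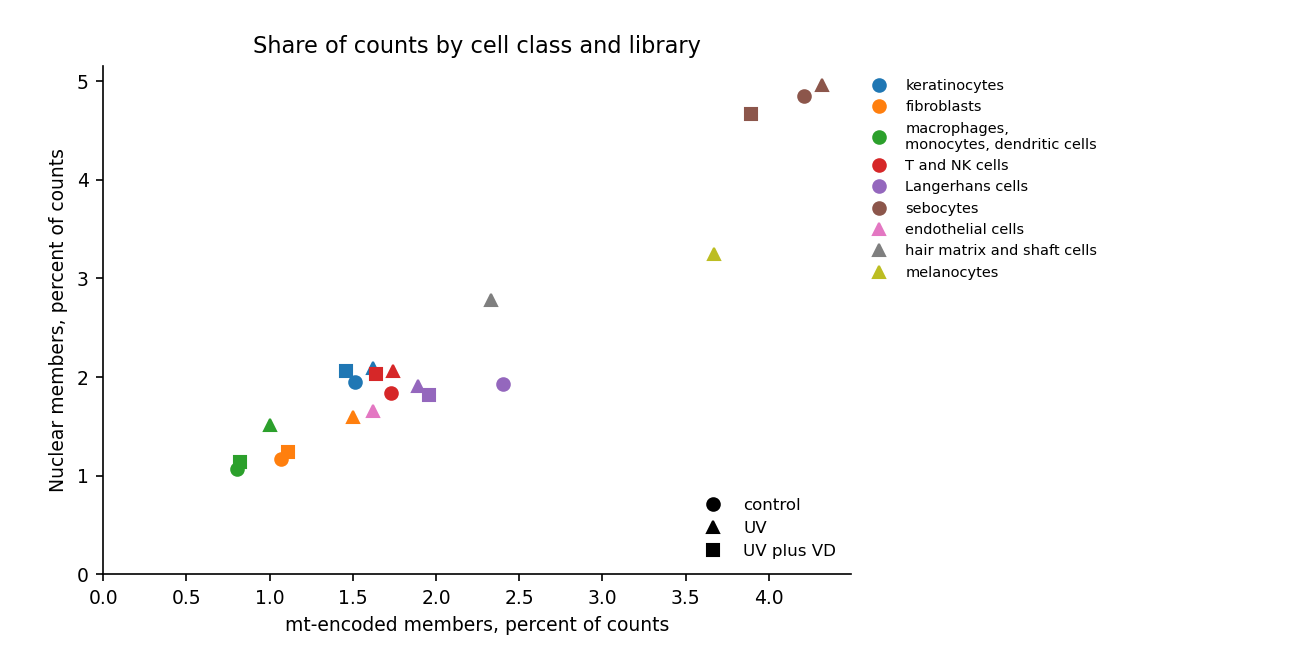
Summed share of counts of mitochondrial genes (horizontal) and nuclear genes (vertical) for each cell class (colour) and library (symbol) with at least 20 cells. Sebocytes stand apart at the upper right in all 3 libraries, and macrophages with monocytes and dendritic cells lie lowest.

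Keratinocytes as a whole had medians near 0 between the libraries, over layer mixes that differed. Granular cells were 5.48% of control, 10.1% of UV and 13.3% of UV plus VD keratinocytes, basal cells 12.1%, 9.76% and 7.81%, and follicle cells 6.29%, 14.9% and 3.84%. The median log2 ratio of UV to control was 0.15 over 9 mitochondrial and 0.04 over 82 nuclear genes, and that of UV plus VD to UV was -0.13 and 0.01. In UV against control 3 of 82 nuclear genes were at least 1.5-fold higher (background 2.36%) and 1 of 82 was lower (background 1.19%). In UV plus VD against UV, 0 of 82 were at least 1.5-fold higher (background 0.261%) and 0 of 82 lower (background 1.46%). The UV library is in both comparisons, so they share its values. The mitochondrial genes did not differ alike. In keratinocytes mt-Cytb was at 4572, 5303 and 4576 CPM in control, UV and UV plus VD, and mt-Co1 at 1665, 2091 and 1608 CPM, both highest in UV. Levels of mt-Nd1 were 3454, 3118 and 3125 CPM and those of mt-Nd2 1303, 1253 and 1262 CPM, both highest in control. By layer, basal cells had UV to control medians of 0.38 for mitochondrial and 0.25 for nuclear genes, follicle keratinocytes 0.43 and 0.36, spinous cells 0.17 and 0.15, and granular cells 0.19 and 0.02. Late cornifying cells had 0.09 and, over 66 nuclear genes, -0.27, beside -0.29 over all genes. Of the 351 basal UV cells, 74 came from a cluster led by Mmp13 and Mmp10 that held 2 control cells, and the part of this cluster in the difference was not tested. Of the 1046 spinous UV cells, 762 came from the cluster led by Stfa3, Stfa1 and Krt6a, which held 20 control cells. Its part in the spinous medians was not tested. In UV plus VD against UV the medians were -0.18 and -0.10 in basal, -0.43 and -0.15 in follicle, -0.07 and 0.04 in spinous, -0.06 and -0.01 in granular, and -0.11 and 0.24 in late cornifying cells.

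The 3 nuclear genes higher in UV keratinocytes were Ndufa4l2, Cox5a and Ndufs5. Ndufa4l2 was at 91.6 CPM in control, 190 CPM in UV and 152 CPM in UV plus VD, which is 2.07-fold higher in UV than control (2.0 to 2.14) and 1.25-fold lower in UV plus VD than UV (1.21 to 1.29). Cox5a, a complex IV subunit, was at 22.7, 48.4 and 48.2 CPM. Ndufs5, a complex I subunit, was at 45.0, 78.7 and 79.9 CPM. Cox5a and Ndufs5 were thus at like levels in both irradiated libraries, 2.13-fold (1.99 to 2.28) and 1.75-fold (1.67 to 1.84) above control in UV. Both genes share over 50% of their 3′ words with other genes (69.3% and 54.6%), as does mt-Nd3 (98.8%), which was at 77.0, 135 and 122 CPM. Without the 7 nuclear genes that share such words, Ndufa4l2 was the 1 gene left. Among all genes at 50 CPM or more, 12.4% of 153 genes with over 50% shared words were at least 1.5-fold higher in UV keratinocytes, against 5.48% of 2044 genes with none. In UV plus VD against control keratinocytes the same shares were 4.67% of 150 genes and 5.20% of 2059 genes, so no such excess was seen there. The part of shared sequence in these differences was not tested beyond these counts. Ndufaf4 was the gene lower in UV, at 35.6 CPM in control, 17 CPM in UV and 26.0 CPM in UV plus VD. Cox6b2, a form of a complex IV subunit known from testis, rested on few counts (54 in UV, 23 in UV plus VD and 21 in control).

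Glycolysis genes gave a median of 0.23 in UV against control keratinocytes and -0.17 in UV plus VD against UV. Eno1, a glycolytic enolase, was at 101 CPM in control, 204 CPM in UV and 155 CPM in UV plus VD. Medians of the other lists in UV against control ran from -0.22 (dissociation and stress genes) to -0.02 (assembly factors), so none of them lay above 0.

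In fibroblasts, the collagen-making cells of the dermis, both kinds of genes were higher in UV. The UV to control medians were 0.50 over 8 mitochondrial and 0.49 over 83 nuclear genes, beside 0.15 over all genes, and 28 of 83 nuclear genes were at least 1.5-fold higher (background 15.8%). In UV plus VD against UV the medians were -0.46 and -0.37, and 20 of 83 nuclear genes were at least 1.5-fold lower (background 14.2%). The mix of fibroblast clusters differed between the libraries, and its part in these medians was not tested beyond the values within clusters. A cluster led by Crabp1, Tnc and Bgn held 99 of 480 UV fibroblasts, against 11 of 214 in control and 15 of 208 in UV plus VD. Within cluster 9 (152, 188 and 147 cells) the nuclear median of UV against control was 0.12, with all genes at 0.08. Within cluster 18 (51, 193 and 46 cells) the nuclear median was 0.08, with all genes at 0.13. The mitochondrial median was 0.50 within cluster 9 and 0.22 within cluster 18. For UV plus VD against UV, the nuclear median was -0.10 within cluster 9 and 0.12 within cluster 18, where its sign turned, and the mitochondrial median -0.40 and -0.51. All genes were at -0.06 and 0.07 there. In UV against control the mitochondrial median was thus as large within cluster 9 as in all fibroblasts, but smaller within cluster 18. The nuclear median was smaller within both clusters than in all fibroblasts. Summed markers of dividing cells were at 21.3, 329 and 11.3 CPM in control, UV and UV plus VD fibroblasts, with 4, 0 and 5 of 12 markers at 0. Summed markers of macrophages and monocytes were at 41.0, 339 and 29.3 CPM, with 5, 0 and 6 of 13 at 0, and those of spinous keratinocytes at 13746, 8438 and 16927 CPM with 0 of 12 at 0 in each. Their part in the fibroblast differences was not tested.

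Cytochrome b RNA (mt-Cytb) in fibroblasts was at 3012 CPM in control, 4917 CPM in UV and 3281 CPM in UV plus VD. UV was 1.63-fold above control (1.58 to 1.69) and 1.5-fold above UV plus VD (1.45 to 1.55). Cox5a was at 9.85, 33.8 and 25.5 CPM. Ndufaf3, a complex I assembly factor, was at 3.28, 18.9 and 5.25 CPM, from 4, 68 and 7 counts. Ndufa4l2 was at 107, 155 and 63.0 CPM and lay mainly in cluster 18 (371 of 560 UV counts). Ndufa4 was at 442, 461 and 470 CPM, within counting error of each other.

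Muscle forms of complex IV subunits had more counts in UV fibroblasts than in those of the other libraries. For Cox6a2 these counts lay almost wholly in a few cells. Cox6a2, the form of heart and skeletal muscle, had 69 counts in UV fibroblasts and 0 in the others. A count of 0 allows up to 2.46 CPM in control and 2.25 CPM in UV plus VD, so UV was at least 7.78-fold and 8.51-fold higher. Of the 69 counts, 67 lay in 2 cells in which markers of skeletal muscle made up at least 1% of counts. The 9 muscle markers summed to 1128 CPM in UV fibroblasts with 1 at 0, and to 1.64 and 9.00 CPM in control and UV plus VD with 8 and 6 at 0. Cox8b, another muscle form, had 32 UV counts, all in the Crabp1 cluster, and 0 in the other libraries. Cox7a1, also a muscle form, had 38 UV counts, of which 31 lay in the Crabp1 cluster. It had 5 counts in control and 0 in UV plus VD fibroblasts. The cells that held Cox8b and Cox7a1 were not counted.

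Macrophages, monocytes and dendritic cells also had medians above 0 in UV, though not under every setting. Their UV to control medians were 0.37 for mitochondrial and 0.47 for nuclear genes, with all genes at 0.15, and 22 of 80 nuclear genes were at least 1.5-fold higher (background 18.3%). In UV plus VD against UV they were -0.29 and -0.35, with 19 of 80 nuclear genes at least 1.5-fold lower (background 17.1%). A cluster with Lyz2, Ms4a4c and Ly6c2 among its leading genes held 334 of 589 UV cells, against 13 of 134 in control and 8 of 90 in UV plus VD. Within cluster 15, led by Ccl8, Retnla and Pf4 (114, 136 and 76 cells), the UV to control medians were 0.41 and 0.34, and those of UV plus VD against UV -0.36 and -0.21. The medians of all genes within this cluster were 0.20 and -0.15 in the same comparisons. When each cell was assigned to a class on its own, the UV to control medians were -0.10 for mitochondrial and 0.11 for nuclear genes, and those of UV plus VD against UV were 0.17 and -0.03. The sign of both mitochondrial medians turned there. Atp5k, a small subunit of ATP synthase, was at 82.8 CPM in control, 201 CPM in UV and 90.7 CPM in UV plus VD. It was 2.43-fold higher in UV than control (1.87 to 3.21) and 2.22-fold lower in UV plus VD than UV (1.64 to 3.06). Ndufa3, a small subunit of complex I, was at 157, 316 and 172 CPM, and Cox5a at 13.6, 48.2 and 37.5 CPM.

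**Figure D5:**
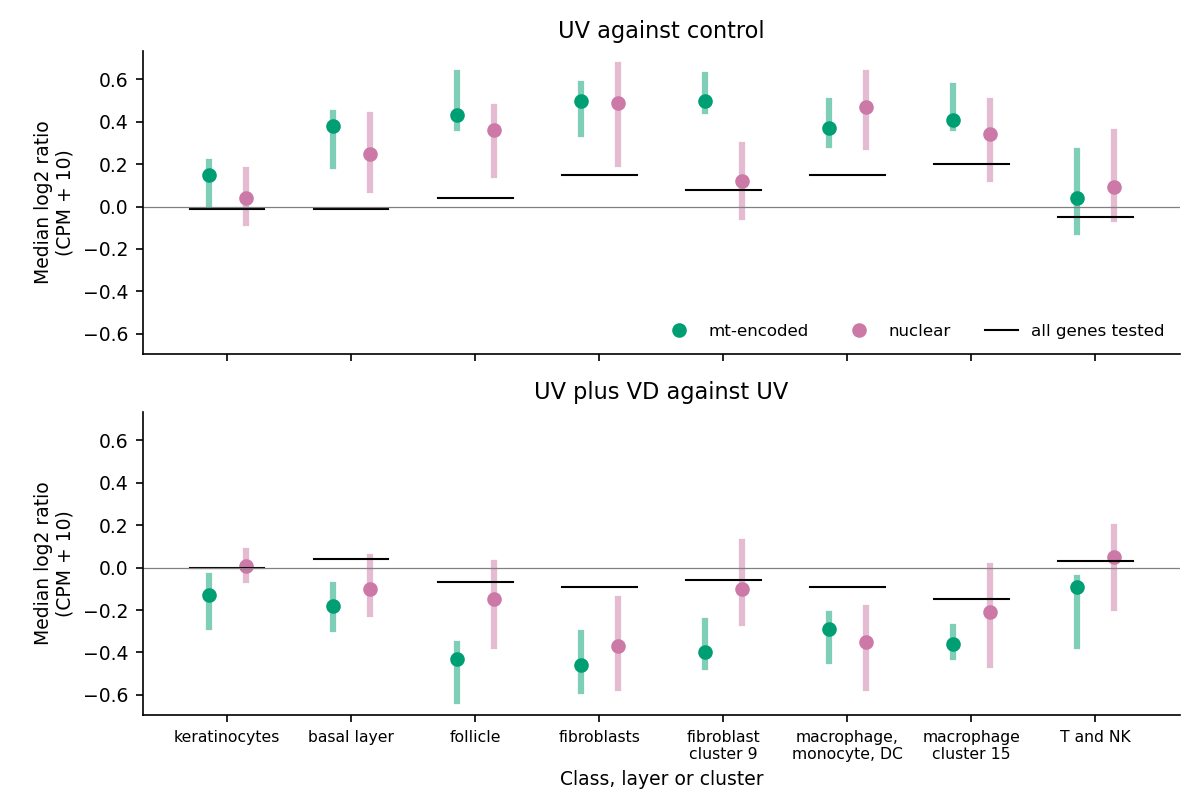
Median log2 ratio (circles) with the middle 50% of genes (bars) for mitochondrial and nuclear genes, and the median of all genes (black lines), in UV against control (top) and UV plus VD against UV (bottom). Both kinds of genes are higher in UV in fibroblasts and in the macrophage class, and in fibroblast cluster 9 the nuclear median lies near all genes while the mitochondrial one does not.

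T and NK cells showed medians near 0 in UV against control, 0.04 for mitochondrial and 0.09 for nuclear genes, with all genes at -0.05. A cluster led by Trdc, a gamma delta T cell gene, held 120 of the 129 control cells, and a cluster led by Gzmc held 138 UV cells against 9 in control. Ndufa4l2 was at 129, 42.1 and 86.7 CPM in these cells.

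Among the other paired isoforms, the broadly expressed forms carried nearly all counts in keratinocytes. Cox4i2, a lung and hypoxia-linked form, had 1, 1 and 1 counts beside 47582, 21873 and 37281 for Cox4i1. Cox7a1, the muscle form, had 3, 8 and 3 counts beside 42169, 22598 and 41867 for Cox7a2. Cox8b had 0, 6 and 5 counts beside 26800, 16179 and 24529 for Cox8a. Cox7a2l was at 180, 193 and 188 CPM, and Cox6b1 at 756, 882 and 837 CPM. Of the genes for the c subunit of ATP synthase, which make the same mature protein, Atp5g1 was at 380, 328 and 397 CPM, Atp5g3 at 206, 191 and 206 CPM, and Atp5g2 at 13.4, 24.1 and 23 CPM. Atp5g2 shares 41.4% of its 3′ words with other genes.

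Mitochondrial ribosomal RNA did not follow mitochondrial mRNA between libraries. In keratinocytes mt-Rnr1 and mt-Rnr2 together gave 0.772 counts per count of the mitochondrial mRNAs in control, 0.563 in UV and 0.498 in UV plus VD. Levels of mt-Rnr2 were 8838, 6839 and 5618 CPM and those of the cytosolic rRNA gene CT010467.1 were 111784, 90531 and 70194 CPM. Over all keratinocytes both kinds of rRNA were ordered control, UV, UV plus VD, but not in every layer. In spinous cells mt-Rnr2 was at 10294, 6137 and 7092 CPM and CT010467.1 at 150427, 99299 and 118105 CPM, both lowest in UV. In granular cells mt-Rnr2 was at 5270, 5538 and 5500 CPM, and in basal cells at 20678, 16550 and 14812 CPM. The ratio of mitochondrial rRNA to mRNA was 0.839, 0.467 and 0.547 in spinous and 0.714, 0.655 and 0.671 in granular cells. In basal cells it was 1.33, 0.910 and 0.857. Over all cells, the median percentage of counts from mitochondrial genes of any kind, a usual quality measure, was 2.90, 2.74 and 2.15, while the mRNA share was 1.52%, 1.67% and 1.45%. How far rRNA capture differed between libraries was not tested.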

How the data were processed

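The deposited files hold counts per gene and cell barcode, with no normalization by the authors. FastQC, fastp, STAR and featureCounts are named in the submitters' processing notes, which also name GRCh38, a human build, although the gene symbols are those of mouse. Whether counts are of molecular identifiers or reads, and whether strand was used, was not given in the labels. Kept cells had at least 200 genes and at most 20% mitochondrial counts, and no doublet caller was run. Cells were clustered (scanpy 1.11.5, leidenalg 0.10.2, 2000 variable genes, 30 components, 15 neighbours, resolution 1) without the 97 genes or other mitochondrial genes, and named from marker lists. Counts were summed by class, layer and library. Log2 ratios used CPM plus 10, and intervals on ratios are exact 95% conditional intervals. The text names the mitochondrial genes, tissue isoforms with their partners, the 2 nuclear genes with most counts in each complex, and, in the main comparisons, up to 3 highest and 3 lowest nuclear genes whose interval lay wholly beyond 1.5-fold (minimum 50 counts on the higher side). Other genes named were chosen after their values were seen. Scripts were tested on simulated data. The members and lists were chosen with earlier results of these data known. With 1 library per group, groups were compared without a test. Layers and classes were compared within each library, and those differences were described over the 3 libraries and not tested.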

Additional observations from a re-analysis of the deposited data

Results flagged for a closer look

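Ndufa4l2 and Uqcrc1 differed in direction between cell classes under the same contrast, and these differences were not tested because each group is 1 library. In UV against control, the log2 ratio of Ndufa4l2 was 0.97 in keratinocytes and -1.42 in T and NK cells. Uqcrc1 was at 0.68 in fibroblasts and -0.65 in T and NK cells. In UV plus VD against UV, Ndufa4l2 was at 0.89 in T and NK cells and -1.18 in fibroblasts. T and NK cells were in every one of these pairs. Their control cells came mainly from the cluster led by Trdc and their UV cells mainly from the cluster led by Gzmc. The UV plus VD cells came from both. The part of this mix in the differences was not tested.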

How the results depend on the processing

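Each group is 1 library, so the spread between animals is unknown, and classes of few cells (21 sebocytes in UV plus VD) rest on little depth. No paired analysis was possible because each group has 1 library, which holds for comparisons between groups. Layers and classes are paired within the 3 libraries, and that pairing was described and not tested. The granular to basal mitochondrial median kept its sign in all 15 settings of each library (-1.42 to -0.92 in control, -1.44 to -0.98 in UV, -1.30 to -0.92 in UV plus VD), and the nuclear one did not in control (-0.36 to 0.03) and UV plus VD (-0.30 to 0.02). The causes of the shifts below were not tested. With mitochondrial, rRNA and haemoglobin genes left out of the total, the granular medians were -1.42 (mitochondrial, control) and -0.53 (nuclear, UV), and the keratinocyte nuclear median of UV plus VD against UV was -0.02. With the median of all genes set to 0, nuclear medians were 0.34 in fibroblasts and 0.33 in macrophages, monocytes and dendritic cells (UV against control), -0.26 in the latter (UV plus VD against UV), and -0.10 and 0.02 for granular cells of UV and UV plus VD. A pseudocount of 1 gave 6 higher and 2 lower nuclear genes in UV keratinocytes and 1 lower in UV plus VD against UV. The mean of single-cell CPM gave a keratinocyte nuclear median of 0.12 with 5 genes higher, and 0.60 and -0.46 in macrophages, monocytes and dendritic cells. Cells of 5000 to 20000 counts gave nuclear medians of -0.03 (keratinocytes, UV plus VD against UV), 0.34 (fibroblasts) and 0.27 (macrophages, monocytes and dendritic cells). Naming each cell alone gave 0.35 in fibroblasts, and in macrophages, monocytes and dendritic cells -0.10 (mitochondrial) and 0.11 (nuclear) for UV against control and 0.17 and -0.03 for UV plus VD against UV, with mt-Nd3 reversed at -0.02. Alternatives chosen after seeing the data were leaving out genes with shared ends (1 gene higher in UV keratinocytes), fibroblast clusters 9 and 18 alone (nuclear 0.15 and -0.03), cluster 15 alone (0.34 and -0.21) and clusters 4 and 6 as the basal and granular layers (nuclear -0.07 in UV and 0.02 in UV plus VD).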
